A study of Mus musculus with 4 samples.

Results

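The genes described here are 7 genes that mark the colonic epithelium while it repairs a wound and returns to a fetal-like state, namely *Ly6a*, *Clu*, *Anxa1*, *Anxa3*, *Plaur*, *F3* and *Yap1*. They were taken by their symbols from the 16015 genes listed for colonic epithelial cells of mice with dextran sulfate sodium (DSS) colitis, and each symbol matched 1 gene. The libraries came from 2 control mice, labelled WT and of the genotype *Bmal1* fl/fl, and from 2 mice labelled *Bmal1* cKO, of the genotype *Villin-CreERT2; Bmal1* fl/fl. All were C57BL/6 littermates aged 2 to 4 months that drank 3% DSS for 5 days and water for 2 days, and their colonic epithelium was taken on day 7. The deletion was induced with tamoxifen on 5 consecutive days, and the methods do not say apart whether the control mice received it. The *Villin* promoter drives Cre in intestinal epithelial cells, so that other cells in the preparation were not targeted in either group. The study asked how loss of BMAL1, the core activator of the circadian clock, alters colitis. No mice without DSS were analysed here, so none of the values shows whether a gene was induced by the injury.

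After injury the gut epithelium turns off genes of the crypt base and turns on genes that are otherwise used before birth. *Ly6a* encodes the surface antigen SCA-1, the usual marker of this state, and *Clu* encodes the secreted chaperone clusterin, which marks revival stem cells. Annexins A1 and A3 bind membrane phospholipid in the presence of calcium. *Plaur* encodes the receptor of urokinase and *F3* encodes tissue factor, the starter of blood coagulation, and both act at wound edges. *Yap1* encodes the transcriptional effector of the Hippo pathway, which works with the TEAD factors and is needed for the state. Several of these genes are also known outside the epithelium, such as *Plaur* in neutrophils and macrophages and *F3* and *Clu* in fibroblasts. *Ly6a* is also known from T cells, fibroblasts and endothelium, and *Anxa1* and *Anxa3* from neutrophils. The part of other cells in the levels of these genes was not tested.

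In the libraries labelled *Bmal1* cKO the transcripts of *Plaur*, *F3* and *Clu* were lower and those of *Anxa3* were higher, while *Ly6a*, *Anxa1* and *Yap1* did not pass the test. The fall was 4.69-fold for *Plaur*, 3.39-fold for *F3* and 3.73-fold for *Clu*, and the rise of *Anxa3* was 1.29-fold. The rise of *Anxa3* was not called after a correction for GC content and gene length, and neither it nor the fall of *Clu* was called when any 1 library was left out. *Plaur* alone passed the test under all 16 alternative ways of processing. The marker gene of the state, *Ly6a*, had higher values in both libraries labelled cKO than in either control library, with an adjusted p of 0.116 from limma. The log2 differences of the members ran from -2.23 to 0.46, with a median of -0.15, against -0.04 over all tested genes.

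The promoters of the members that fell are shown because both of those held in the sequence table carry a motif of AP-1, the FOS and JUN factor of wounding and inflammation. That of *Yap1* is shown because it alone carries an E-box, the motif of BMAL1 and CLOCK. The sequences are from RefSeq on GRCm38.p6 and run 5′ to 3′ on the strand of the gene, from 250 bases before the start of transcription to 50 bases after it, with motifs in capitals. The table held 4 of the 7 members, *Plaur*, *F3*, *Yap1* and *Anxa1*.

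*Plaur*, chr7:24462233-24462532, plus strand: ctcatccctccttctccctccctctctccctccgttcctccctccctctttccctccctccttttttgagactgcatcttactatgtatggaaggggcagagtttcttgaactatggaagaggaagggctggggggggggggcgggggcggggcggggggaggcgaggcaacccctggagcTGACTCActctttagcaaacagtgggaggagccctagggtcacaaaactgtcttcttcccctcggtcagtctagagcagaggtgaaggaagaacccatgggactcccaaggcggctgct

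*F3*, chr3:121723287-121723586, plus strand: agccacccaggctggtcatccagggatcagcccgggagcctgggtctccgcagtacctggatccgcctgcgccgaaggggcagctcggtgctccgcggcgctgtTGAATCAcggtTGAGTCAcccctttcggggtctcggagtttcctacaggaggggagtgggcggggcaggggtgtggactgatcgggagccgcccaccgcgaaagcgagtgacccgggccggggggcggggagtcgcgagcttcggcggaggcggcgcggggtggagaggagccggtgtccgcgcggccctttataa

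*Yap1*, chr9:8004547-8004846, minus strand: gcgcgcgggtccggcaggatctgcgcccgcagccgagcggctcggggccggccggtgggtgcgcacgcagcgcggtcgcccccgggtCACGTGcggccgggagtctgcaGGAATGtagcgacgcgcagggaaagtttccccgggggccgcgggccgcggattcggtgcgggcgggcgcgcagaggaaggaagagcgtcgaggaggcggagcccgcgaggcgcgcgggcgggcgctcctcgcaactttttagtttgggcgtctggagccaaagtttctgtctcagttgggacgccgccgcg

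The motifs searched, on both strands, were TGANTCA for AP-1, GGAATG for TEAD, CACGTG for the E-box and the NF-kB motif by its name, and none of their matches overlapped. The *Plaur* promoter has an AP-1 motif that begins 69 bases before the start. The *F3* promoter has a pair of them, at 146 and 135 bases before it. The *Yap1* promoter has the E-box at 163 bases and a TEAD motif at 141 bases, and the *Anxa1* promoter (chr19:20390622-20390921, minus strand) has a TEAD motif at 236 bases before the start. Of all 32851 promoters in the table, 7.81% hold the AP-1 motif, 14.7% the TEAD motif, 7.15% the E-box and 4.51% the NF-kB motif, which none of the 4 promoters holds. A match is a stretch of letters, and whether any factor was bound there was not measured in these libraries. The study mapped BMAL1 binding by CUT&Tag in organoids of wild-type colon, and those data were not used here.

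The reads on the listed genes numbered between 10312791 and 14156639 per library, with the fewest in library 2 labelled cKO. The values are normalized counts, that is, reads divided by the size factor of the library, and 1 read is worth between 0.845 and 1.35 normalized counts. The targeted gene, listed as *Arntl*, had 358 and 342 normalized counts in the control libraries and 341 and 289 in those labelled cKO, a log2 difference of -0.16 (standard error 0.14, adjusted p = 0.389 from limma). This sum over the whole gene does not single out the deleted part, so the genotype was not shown by the data, and every direction given is that of the labelled libraries. The labelled cell type was present in all 4 libraries, where the 8 epithelial markers summed to between 117878 and 135370 normalized counts, with *Krt18* lower and *Krt20* higher in the libraries labelled cKO. After a correction for the GC content and length of the genes, *Krt18* was not called and *Krt8*, *Krt19*, *Epcam*, *Cldn7* and *Krt20* were called higher. Markers of other cells moved with the groups. Of 6 leukocyte markers all 6 were lower, and they summed to 5425 and 4345 in the control libraries and 620.2 and 883 in those labelled cKO. All 6 neutrophil markers (3120 and 18649 against 583 and 285), all 6 macrophage markers (6136 and 2112 against 291 and 529), all 6 endothelial markers (2239 and 547 against 41.1 and 66.2), 5 of 6 fibroblast markers (13245 and 2198 against 441 and 457) and 4 of 5 markers of smooth muscle and pericytes (1957 and 1437 against 15.4 and 28.4) were lower too. Of 7 lymphocyte markers 2 were lower (8298 and 182 against 162 and 327), and their sum was high in 1 control library only. *Ngp* and *Cd2* were at 0 in both libraries labelled cKO. In bulk RNA fewer cells of a type and less RNA per cell cannot be told apart.

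**Figure D1:**
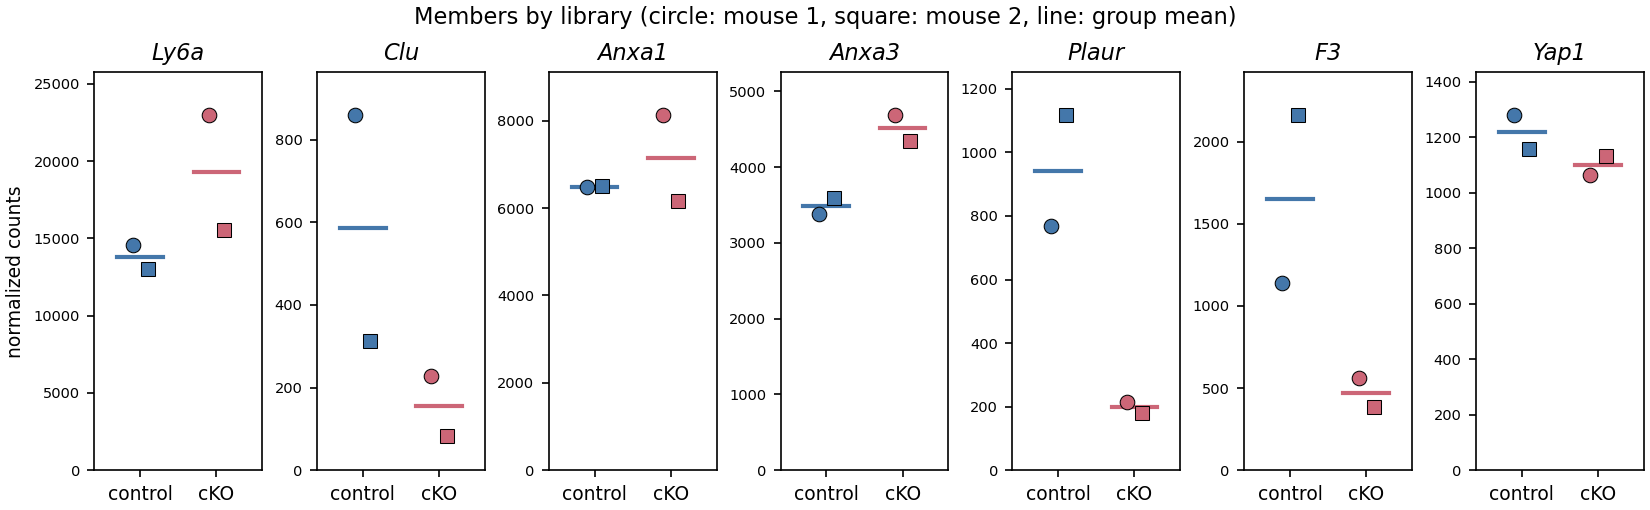
Normalized counts of the 7 members in each library, 1 panel per gene with the vertical axis starting at 0 (blue, control; red, labelled *Bmal1* cKO; circle, mouse 1; square, mouse 2; line, mean of the group). The groups overlap for *Anxa1* only, and the ratio of their means is largest for *Plaur*, with 767 and 1118 against 215 and 179.8.

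The comparison used limma on log2(normalized count + 1) for 13983 genes, those whose mean reached 10 normalized counts, two-sided, with Benjamini-Hochberg adjustment over all of them and a threshold of 0.05. All 7 members passed that filter. In a GC correction tried beside it, the dependence of each library on the GC content and the exon length of the genes was taken out by loess. Of all tested genes 27.7% were called lower, 29.0% higher and 56.7% in either direction, beside 3, 1 and 4 of the 7 members, so that the share of members called was close to that of all genes. With any 1 library left out limma called 0 members higher (0 to 2 at an unadjusted p under 0.05), and without library 2 labelled cKO 1 was called lower, namely *Plaur*. The groups did not overlap for 6 of the 7 members, 4 with the libraries labelled cKO below and 2 with them above, while over all tested genes 41.7% were apart with cKO below, 40.3% with cKO above and 82.1% in either direction. Changes were described member by member for this reason. Per kilobase of exon the control libraries held 11429 normalized counts of *Ly6a*, 2228 of *Anxa1*, 958 of *Anxa3*, 654 of *F3*, 360.2 of *Plaur*, 171 of *Clu* and 132 of *Yap1* (means, n = 2), and the ranges of neighbours in this order overlapped for *Clu* and *Yap1* only. In the libraries labelled cKO the order was *Ly6a* with 16004, *Anxa1* with 2455, *Anxa3* with 1240.1, *F3* with 187, *Yap1* with 119, *Plaur* with 75.4 and *Clu* with 45.3, and no neighbours overlapped. *Plaur* thus lay above *Yap1* in both control libraries and below it in both libraries labelled cKO.

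*Plaur* (chr7:24462484-24475968 of GRCm38, plus strand) had 767 and 1118 normalized counts in the control libraries and 215 and 179.8 in those labelled cKO. Both values labelled cKO were below both control values, and the gap between the groups was larger than the spread within either. The mean was 943 ± 248 (SD, n = 2) against 197 ± 24.9 (SD, n = 2). The log2 difference was -2.23 (standard error 0.21, adjusted p = 0.000943 from limma), a fall of 4.69-fold with a 95% confidence interval of 3.23-fold to 6.81-fold. It kept this direction under all 16 alternatives, with log2 differences between -2.50 and -1.50. Leaving out each library in turn gave adjusted p between 0.0138 and 0.0223. Neutrophil and macrophage markers, which belong to cells known to carry this receptor, were lower in the same libraries, and their part in the fall was not tested. Between the control libraries *Plaur* was higher in library 2, as were all 6 neutrophil markers, while all 6 macrophage markers were higher in library 1.

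Around the receptor, the genes of plasminogen activation did not all follow it. Of 12 genes listed for this pathway 10 were in the data and 9 were tested. Of these 4 were lower and 2 higher, beside 27.7% lower and 29.0% higher over all tested genes. The median log2 difference was -2.23 against -0.04 over all tested genes. *Plau*, which encodes urokinase, the ligand of the receptor, had 202 and 60.1 normalized counts in the control libraries and 78.2 and 24.3 in those labelled cKO. These values overlapped between the groups and did not pass the test (log2 difference -1.32, adjusted p = 0.192 from limma). *Serpine2*, an inhibitor of plasminogen activators, fell from 483 and 125 to 2.06 and 2.70, and *Plat*, the tissue-type activator, fell from 705 and 987 to 78.2 and 23.0. *Serpine2* and *Plat* are also made by fibroblasts and endothelium, whose markers were lower in the same libraries, and the part of those cells was not tested. *S100a10*, the partner of annexin A2 that binds plasminogen at the cell surface, rose from 4231 and 4244 to 6509 and 6716, and *Itgb1*, the integrin beta 1 chain with which the receptor associates, rose from 5031 and 4529 to 7669 and 8202. After the GC correction the log2 difference of *Itgb1* was 0.15 and was not called, and that of *S100a10* was 0.73 and was called.

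*F3* (chr3:121723537-121735048, plus strand) had 1141 and 2162.5 normalized counts in the control libraries and 561 and 382.5 in those labelled cKO. The groups did not overlap, although the control values differed from each other by more than the values labelled cKO did. The log2 difference was -1.76 (standard error 0.34, adjusted p = 0.00825 from limma), a fall of 3.39-fold with a 95% confidence interval of 1.88-fold to 6.11-fold. It passed the test in 15 of 16 alternatives. Without library 2 labelled cKO the log2 difference was -1.48 and the adjusted p 0.085, where the lone library was assumed to vary like the control group. The GC content of *F3* is 46.6%, and genes of that class had a median log2 difference of 0.39, so that *F3* fell while its class lay above 0. After the correction its log2 difference was -2.14 (adjusted p = 0.0104). Fibroblast and neutrophil markers were lower in the same libraries. Between the control libraries *F3* and all 6 neutrophil markers were higher in library 2, and all 6 fibroblast markers were higher in library 1. The part of other cells in the fall was not tested.

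Of 14 genes of the tissue factor pathway 13 were in the data and 9 were tested, of which 6 were lower and 2 higher, with a median log2 difference of -2.42. Without library 2 labelled cKO 2 were called lower, and with any 1 library left out at most 1 was called higher. *Thbd*, encoding thrombomodulin, which turns thrombin to anticoagulant work on endothelium, fell from 275 and 106 normalized counts to 13.4 and 10.8. All 6 endothelial markers were lower in the same libraries and, like *Thbd*, higher in control library 1, and their part in the falls of this list was not tested. The other genes that fell with *F3* were *F10*, *Procr*, *F2r* and *F5*, each with a mean under 200 normalized counts in the control libraries. Among these *F2r* was higher in control library 1, while *F10*, *Procr* and *F5* were, like *F3*, higher in control library 2. *F2rl1*, the protease-activated receptor PAR2, through which tissue factor and factor VIIa signal to epithelial cells, rose from 1696 and 1943 to 2392.5 and 2572. That rise was 1.37-fold (log2 difference 0.45, adjusted p = 0.0168), and after the GC correction it was not called (0.30, adjusted p = 0.0644). *Tfpi2* was higher too, at 54.5 and 108 against 28.7 and 17.8, and was not called after the GC correction (0.92, adjusted p = 0.173), which left 7 genes of this list lower and 0 higher by limma (1 at an unadjusted p under 0.05). *Tfpi*, the inhibitor of the tissue factor complex, had 85.3 and 37.3 against 30.9 and 41.9 and did not pass the test (log2 difference -0.64, adjusted p = 0.309), although it was called lower after the GC correction (-1.67, adjusted p = 0.0478). *F7*, the ligand of tissue factor, had 16.9 and 19.5 against 0 and 1.35 and lay under the filter.

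**Figure D2:**
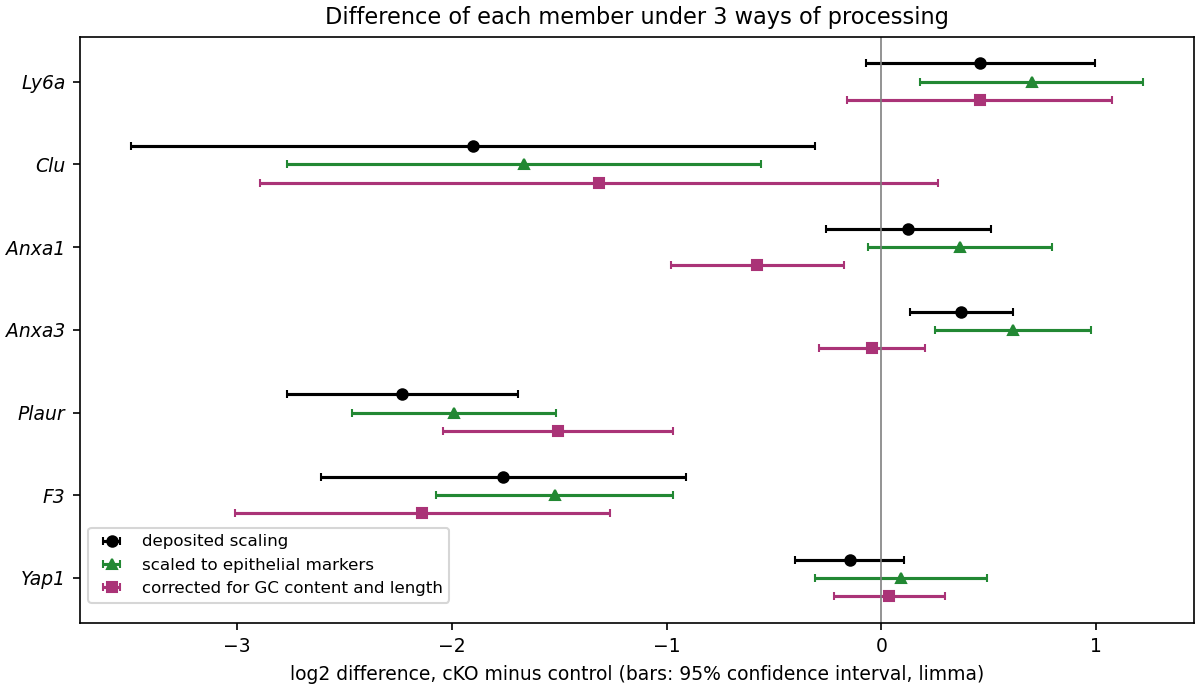
Log2 difference (labelled *Bmal1* cKO minus control) of each member on the horizontal axis, with 95% confidence intervals from limma, under the deposited scaling (black), scaling to the epithelial markers (green) and the GC correction (purple). *Plaur* and *F3* lie below 0 under all 3, and the estimate of *Anxa3* goes from 0.37 to -0.04 with the correction.

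*Clu* (chr14:65968483-65981547, plus strand) had 860.0 and 313 normalized counts in the control libraries and 227 and 83.8 in those labelled cKO. The groups did not overlap, but the control libraries differed from each other by more than the lower of them differed from the higher library labelled cKO. The log2 difference was -1.90 (standard error 0.63, adjusted p = 0.0487 from limma), with a 95% confidence interval of the fall from 1.24-fold to 11.3-fold. The call held in 8 of 16 alternatives with adjusted p from 0.000826 (with the replicate block) to 0.258 over all 16. It was lost with a pseudocount of 5 (adjusted p = 0.0514 from limma) and with no filter (0.0508), and held by DESeq2 (0.00295) and with the epithelial scaling (0.0150). It was also lost by edgeR (adjusted p = 0.0604), by the GC correction (log2 difference -1.32, adjusted p = 0.155) and when any 1 library was left out. Without control library 1 the log2 difference was -1.17, without control library 2 it was -2.63, without library 1 labelled cKO it was -2.61 and without library 2 labelled cKO it was -1.19. The direction was downward in all 16 alternatives. *Clu* was higher in control library 1, as were all 6 fibroblast and all 6 endothelial markers. Between the libraries labelled cKO *Clu* was higher in library 1, as were 4 of 6 fibroblast and 2 of 6 endothelial markers. There the fibroblast markers summed to 441 and 457 normalized counts and the endothelial markers to 41.1 and 66.2. The part of these cells was not tested.

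*Ly6a* (chr15:74994877-74998031, minus strand) was the most abundant member, with 14554 and 12991 normalized counts in the control libraries and 22998 and 15570.0 in those labelled cKO. Both libraries labelled cKO were above both control libraries, by a margin that rested on library 1 of them. The log2 difference was 0.46 (standard error 0.21, 95% confidence interval -0.07 to 0.99, adjusted p = 0.116 from limma). It was called higher by DESeq2 on the recovered reads (0.48, adjusted p = 0.0370) and with the epithelial markers set equal (0.70, adjusted p = 0.0255), and it lay above 0 in all 16 alternatives. Without library 1 labelled cKO it was 0.18. *Ly6a* lies in a cluster of similar Ly6 genes, and how the counting treated reads that match more than 1 of them is not given in the sources used here, so its level is uncertain to that extent.

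Among genes with the same Ly6 and uPAR fold, those called by limma were lower. Of 29 listed genes 16 were in the data and 14 were tested, of which 6 were lower, *Plaur* among them, and 0 higher by limma (0 also at an unadjusted p under 0.05 and by edgeR), with a median log2 difference of -1.17. By DESeq2, with the epithelial scaling and after the GC correction 2 genes of this list were higher in each case. *Ly6g*, an antigen best known from neutrophils, had 5801 and 7474 normalized counts in the control libraries and 2918 and 2549 in those labelled cKO (log2 difference -1.27, adjusted p = 0.00176). *Ly6c1*, known from endothelium and monocytes, had 4373 and 3478 against 1676 and 1322 (log2 difference -1.39, adjusted p = 0.00175 from limma). All 6 neutrophil, all 6 macrophage and all 6 endothelial markers were lower in the same libraries. In those labelled cKO the neutrophil markers summed to 583 and 285, under *Ly6g*, and the endothelial markers to 41.1 and 66.2, under *Ly6c1*. The part of those cells was not tested. *Ly6c2*, *Ly6g6c* and *Cd59a* were lower as well, at 215 normalized counts or under in the control libraries. *Lypd8*, which encodes a secreted protein that keeps bacteria off the colonic surface, had 63482 and 88842 against 108642 and 101892 and was not called (0.49, adjusted p = 0.174). *Ly6e* had 6427 and 5199 against 5934 and 4985 and was not called either. After the GC correction *Ly6e* was called higher (0.65, adjusted p = 0.0199).

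The annexins differed from each other. *Anxa1* (chr19:20373428-20390944, minus strand), whose protein also restrains neutrophils through formyl peptide receptors, had 6476 and 6495 normalized counts in the control libraries and 8132 and 6162 in those labelled cKO. These overlapped, and the log2 difference was 0.13 (95% confidence interval -0.26 to 0.51, adjusted p = 0.505 from limma). The direction depended on the scaling. It was -0.10 with library total scaling and 0.37 with the epithelial markers set equal, and after the GC correction it was -0.58 and was called lower (adjusted p = 0.0418). *Anxa1* has a GC content of 43.3%, and its GC class had a median log2 difference of 0.81. *Anxa3* (chr5:96793339-96845966, plus strand) had 3384 and 3595 against 4688 and 4347, with both libraries labelled cKO above both control libraries. Its log2 difference was 0.37 (standard error 0.10, adjusted p = 0.0217), a rise of 1.29-fold with a 95% confidence interval of 1.10-fold to 1.53-fold. That was close to the median of its own GC class, which was 0.39, and after the correction the log2 difference was -0.04 (adjusted p = 0.742). With library total scaling it was 0.15 and not called, and without any 1 library it was not called, with adjusted p between 0.0540 and 0.120.

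Of 12 annexins 11 were in the data and tested, of which 4 were lower and 2 higher, with a median log2 difference of -0.07. Over all tested genes 27.7% were lower and 29.0% higher. *Anxa2*, a surface receptor for plasminogen and its activators, fell from 17949 and 20000 normalized counts to 7198 and 7592 (log2 difference -1.36, standard error 0.12, adjusted p = 0.000750). It also fell after the GC correction, by 1.15 on the log2 scale. *Anxa6* fell from 421 and 147 to 24.7 and 41.9, and *Anxa8* and *Anxa11* fell by 1.25 and 1.30 on the log2 scale. The rise of *Anxa4*, from 3915 and 4416 to 5424 and 5791, was lost with the correction (0.12, adjusted p = 0.408), as was that of *Anxa3*. *Anxa5* and *Anxa7* were not called. The formyl peptide receptors, through which annexin A1 acts, are genes of neutrophils and macrophages. *Fpr1* fell from 59.1 and 565 to 8.23 and 8.11 and *Fpr2* from 85.3 and 169 to 20.6 and 21.6, beside the fall of the neutrophil markers, and both calls were lost when either library labelled cKO was left out (adjusted p between 0.0509 and 0.118).

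*Yap1* (chr9:7931999-8004596, minus strand) had 1281 and 1157 normalized counts in the control libraries and 1066 and 1134 in those labelled cKO. The values were close, with the higher library labelled cKO just under the lower control library. The log2 difference was -0.15 (95% confidence interval -0.40 to 0.11, adjusted p = 0.256 from limma), which leaves room for a fall of up to 1.32-fold. With library total scaling it was -0.37 and was called lower (adjusted p = 0.0300), and it was 0.09 with the epithelial markers set equal and 0.04 after the GC correction, so that its direction depended on the processing. Its paralog *Wwtr1*, which encodes TAZ, had 151 and 37.3 against 10.3 and 8.11 and was lower (log2 difference -2.91, adjusted p = 0.0204). *Wwtr1* was much less abundant than *Yap1* and was higher in control library 1, as were the fibroblast and endothelial markers. Without that library it was not called (-1.92, adjusted p = 0.0523), nor was it without either library labelled cKO (adjusted p of 0.104 and 0.126).

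Within the Hippo pathway and the TEAD factors, all 23 listed genes were tested, 7 were lower and 6 were higher, and the median log2 difference was -0.58. Without control library 1, library 1 labelled cKO or library 2 labelled cKO the genes called lower were 2, 2 and 4. The shares are near those of all tested genes. Regulators of YAP were among the genes called in both directions. The scaffold genes *Mob1b* and *Mob1a* rose by 1.75 and 1.21 on the log2 scale, *Lats1*, the kinase that phosphorylates YAP, rose from 1415 and 1443 normalized counts to 3241 and 3205, and *Taok1*, an upstream kinase, rose from 1731 and 1644 to 4553 and 4538. *Amot* and *Stk3* rose by 0.97 and 0.49. After the GC correction *Mob1b*, *Mob1a*, *Lats1*, *Taok1* and *Amot* were still called higher, with log2 differences of 0.60, 0.65, 0.46, 0.35 and 0.66, and *Stk3* was called lower. *Lats2*, the other LATS kinase and itself a YAP target, had 322 and 203 against 114 and 137 and fell (log2 difference -1.03, adjusted p = 0.0230), a call lost with the correction (-0.59, adjusted p = 0.149). *Wwc1*, which activates the LATS kinases, fell from 1717.5 and 1718 to 760.1 and 773, a call also lost with the correction (-0.25, adjusted p = 0.0925). Among the TEAD factors, *Tead1*, the most abundant, had 1053 and 905 against 1179 and 1081 and was not called (0.21, adjusted p = 0.172), and its direction changed with library total scaling (-0.02). *Tead3* fell by 1.21 on the log2 scale, but lay at 0.04 after the correction. *Tead4*, *Amotl2* and *Nf2* were lower too, and after the GC correction *Nf2* alone of these was called, while *Tead4* lay at 0.14 and *Amotl2* at -0.18. The list then held 4 lower and 5 higher genes.

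Transcripts that YAP and TEAD are known to switch on were mostly lower where they were called. Of 22 such target genes 21 were in the data and 19 were tested, of which 9 were lower, *F3* among them, and 1 was higher, with a median log2 difference of -1.03. *Ccn1* fell from 203 and 142 normalized counts to 23.7 and 28.4, and *Ccn2* fell from 206 and 90.6 to 21.6 and 10.8. The log2 differences were -2.66 (adjusted p = 0.00168) and -3.08 (adjusted p = 0.00658). *Axl* fell from 513 and 70.3 to 19.5 and 20.3, and *Igfbp3*, *Foxf2* and *Ccdc80* were likewise lower. Apart from *F3*, all of the 9 that fell were higher in control library 1, with the fibroblast and endothelial markers. Without library 1 or library 2 labelled cKO 3 and 1 targets were called lower, without control library 1 it was 5, and 5 were called after the GC correction. *Nt5e*, the surface enzyme CD73, was the target that rose, from 1418 and 1985 to 2633 and 2328. After the GC correction it was not called (0.26, adjusted p = 0.274), and *Nuak2* was the target called higher (0.91, adjusted p = 0.00636). Of the 9 targets that fell, *Igfbp3*, *Ccn1*, *Ccn2* and *F3* were also called after the GC correction, and *Axl*, *Foxf2*, *Ccdc80*, *Lats2* and *Amotl2* were not. Among the abundant targets *Dock5*, *Crim1* and *Myof* were not called, although *Myof* was called lower after that correction (-0.49, adjusted p = 0.0441). The fibroblast and endothelial markers were lower in the same libraries as the 9 targets, and the part of those cells was not tested.

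**Figure D3:**
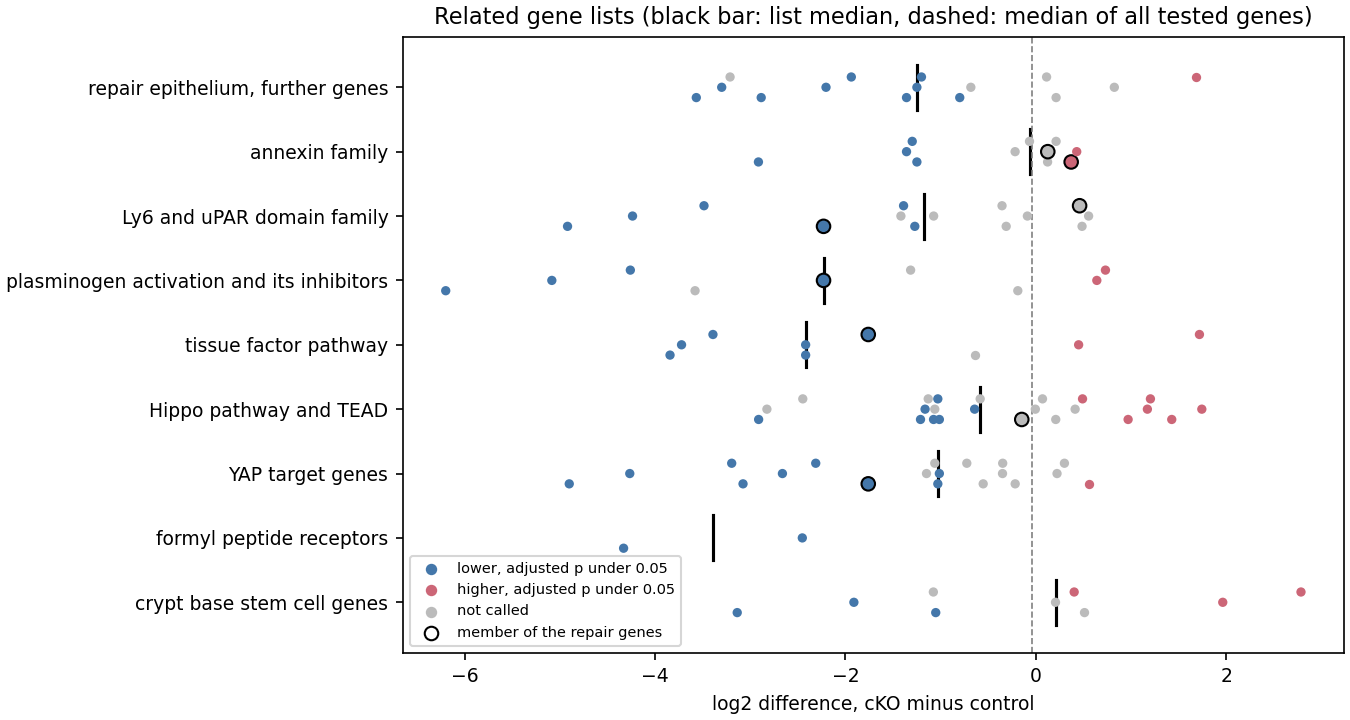
Log2 difference (labelled *Bmal1* cKO minus control) of every tested gene of the related lists, 1 row per list (blue, lower; red, higher; grey, not called; ringed, members; black bar, median of the list; dashed line, median of all tested genes at -0.04). The further repair genes lie mostly to the left, with 9 of 15 lower and *Cxadr* higher, while the Hippo list holds 7 lower and 6 higher genes.

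Further genes described for the fetal-like or repairing epithelium were lower more often than higher. Of 17 listed genes 16 were in the data and 15 were tested, of which 9 were lower and 1 was higher, with a median log2 difference of -1.25, and 8 were lower and 1 higher after the GC correction, when *Krt7* and *Msln* were not called and *Gja1* was. Without control library 1 *Anxa5* was called higher as well and *Spp1* was called lower. *Ecm1*, a secreted matrix protein, fell from 692 and 634 normalized counts to 54.5 and 55.4, which is 11.9-fold (log2 difference -3.57, standard error 0.16, adjusted p = 0.000533). *Tnfrsf12a*, the receptor of TWEAK, fell from 518 and 418 to 77.1 and 50.01. Markers of leukocytes, fibroblasts and smooth muscle were lower in the same libraries, and their part in these falls was not tested. *Sprr1a*, *Basp1*, *Msln* and *Krt7* also fell, as did *Anxa2* and *Anxa8*. *Spp1*, encoding osteopontin, had 60.8 and 838 against 19.5 and 28.4 and was not called (adjusted p = 0.0640). *Cxadr*, an epithelial junction protein, rose from 1756 and 2138 to 5668 and 6827 (log2 difference 1.68, adjusted p = 0.000744), also after the correction (1.04). *Emp1*, *Gja1*, *Il33* and *Anxa5* were not called.

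Genes of the crypt base, which the fetal-like state turns off, did not move in 1 direction. The shares called were near those of all tested genes (29.0% higher and 27.7% lower). Of 9 tested genes 3 were higher and 3 were lower, and without either library labelled cKO 1 was higher and 0 lower by limma (1 lower at an unadjusted p under 0.05). *Lgr5*, the marker of crypt base stem cells, rose from 24.5 and 76.2 normalized counts to 275 and 339, and *Smoc2* rose from 116 and 173 to 493 and 626. The log2 differences were 2.79 (adjusted p = 0.00814) and 1.97 (adjusted p = 0.00191). That of *Lgr5* was not called when either library labelled cKO was left out (adjusted p of 0.0709 and 0.0887). *Prom1* was higher by 0.40 on the log2 scale, and *Rnf43*, *Ascl2* and *Olfm4* were lower. After the GC correction *Olfm4* alone of those 3 was called lower, *Prom1* lay at -0.10 and was not called, and *Lrig1* was called higher (1.16, adjusted p = 0.0165).

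**Figure D4:**
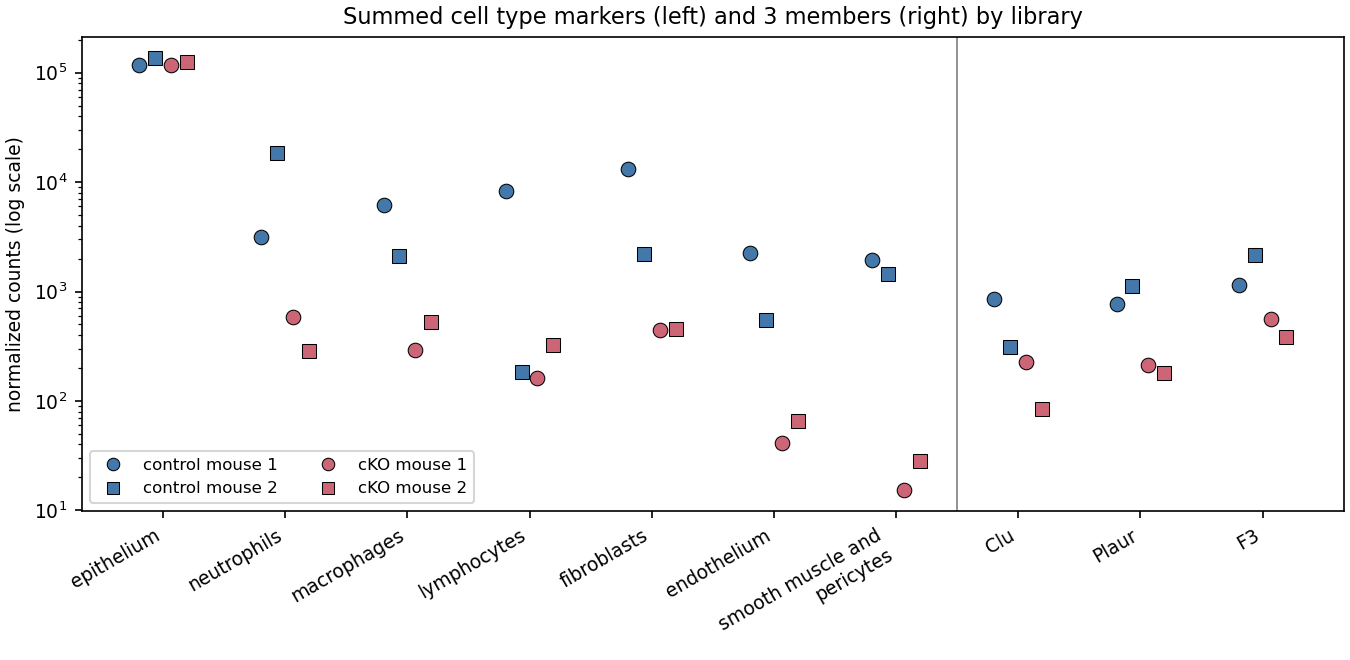
Normalized counts on a log scale of the summed markers of 7 cell types, and of the 3 members that fell, in each library (blue, control; red, labelled *Bmal1* cKO; circle, mouse 1; square, mouse 2). The epithelial sum lies between 117878 and 135370 in all 4 libraries, while the sums of the other cell types, lymphocytes in control library 2 apart, are lower in the libraries labelled cKO.

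The difference of a gene between the groups followed its GC content, which bears on the members. In 10 classes of GC content the median log2 difference went from 1.14 in the lowest class to -1.36 in the highest. *Clu* (54.3% GC) and *Plaur* (55.0%) lie in a class with a median of -0.62, in which 45.7% of genes were called lower. *Anxa1*, *Anxa3* and *F3* lie in classes whose median was above 0, and *Yap1* and *Ly6a* lie near the middle, in classes with medians of -0.05 and 0.13. After the GC correction 14.6% of all tested genes were lower and 20.6% higher, and of the members *Plaur* (log2 difference -1.50, adjusted p = 0.00753), *F3* and *Anxa1* were lower and none was higher. Of the 4 members called without the correction, *Plaur* and *F3* were also called with it.

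**Figure D5:**
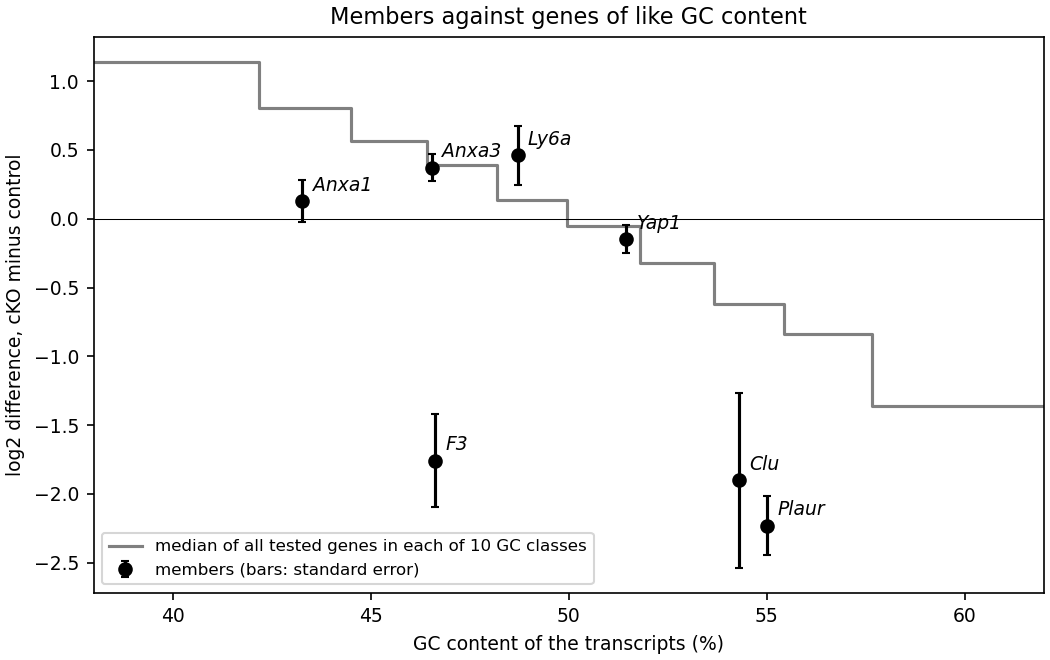
Log2 difference (labelled *Bmal1* cKO minus control) of the members against the GC content of their transcripts in percent (points, with standard errors), with the median of all tested genes in each of 10 GC classes (grey steps, the axis not showing the ends of the outer classes). *F3* lies far below the step of its class (-1.76 against 0.39), and *Anxa3* lies on it (0.37 against 0.39).

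The genes whose pattern over the 4 libraries lay nearest to that of each member were found among 9983 genes whose mean reached 100 normalized counts, by the distance between log2 values centred on their mean. Nearest to *Plaur* was *Ly6m*, with 3986 and 6637 normalized counts against 1160 and 926 (distance 0.17), then *Irf2bp1* (0.19). Nearest to *F3* was *Il1rn*, the antagonist of the interleukin-1 receptor, with 2409 and 5053 against 1269 and 964 (0.18), then *Mapkapk2* (0.26). *Clu* had no close neighbour, since *Cemip* (0.44) and *Tspan4* (0.65) lay farther off. The nearest were *Ankdd1b* and *Mthfd1l* for *Ly6a*, *C87436* and *Nde1* for *Anxa1*, *Trim37* and *Aak1* for *Anxa3*, and *Naca* and *Zfp36l2* for *Yap1*, all at distances up to 0.12. With 4 libraries many genes share a pattern, and after the GC correction 3 of these 14 neighbours were kept.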

How the data were processed

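RNA of colonic epithelial cells from 4 mice was sequenced. The authors aligned the reads to GRCm38 (mm10) with STAR and normalized with DESeq2. The values that the authors deposited per library are a signal, reads on each gene after division by 1 size factor for the library. The counter, the annotation release and whether strand was used are not given in the sources used here, and the labels and the methods name different library kits. The fold changes and p-values that the authors deposited beside these values were not used. In each library 100% of the values were whole multiples of 1 read within 0.01 read, which gave back the reads. The lowest mean listed was 3.39. Each library is 1 mouse.

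Values were compared on the scale of log2(value + 1), where changes of genes with few reads come out too small, by limma 3.58.1 (trend option on) in R 4.3.3. On the recovered reads edgeR 4.0.16 called 3812 genes lower and 3861 higher, and DESeq2 1.42.0 was a further alternative. GC content and exon length came from GENCODE M21, matched for 16008 genes, and each library was corrected for both by loess (span 0.3) with its median kept. Of these fits the main limma fit alone was checked on simulated data, which held no trend with GC content. At 2 libraries per group no exact permutation test could reach the threshold and no outlier test was possible. The members and lists were chosen with earlier results of these data known, and p-values were adjusted over all tested genes. The genes named were the members, the targeted gene, the 2 largest falls and rises of each list among called genes whose mean reached 100, partners of the members, and the 2 nearest patterns of each member. Some genes that this rule names are not reported here. Other names were chosen after the values were seen. Intervals from limma cover the spread between these libraries only. Protein sequences were not used here.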

Additional observations from a re-analysis of the deposited data

How the results depend on the processing

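Over the 16 alternatives *Plaur*, *F3* and *Clu* stayed below 0 and *Ly6a* above 0. *Anxa1* reversed with library total scaling (-0.0997) and the GC correction (-0.578, also with the block), and with 1 library left out it lay between -0.0738 and 0.326, the lowest without library 1 labelled cKO. *Anxa3* reversed with the GC correction (-0.0446, also with the block). *Yap1* reversed with the GC correction (0.0362, also with the block) and the epithelial scaling (0.0924). *Arntl* reversed with the epithelial scaling (0.0837), *Tead3* with the GC correction (0.0440, also with the block), as did *Tead4* and *Prom1*, and *Tead1* with library total scaling (-0.0157) and the GC correction (-0.000334, also with the block). Library total scaling moved the median of all genes by -0.22 and the epithelial scaling by 0.24. Members called higher by limma numbered 0 with library total scaling and with the GC correction (0 at an unadjusted p under 0.05) and 0 with any 1 library left out, and 2 by DESeq2 and with the epithelial scaling. With 1 library left out between 1 and 2 members were called lower, and of all genes between 2205 and 2852 were lower and between 2654 and 3154 higher. With the GC correction 2044 of all genes were lower, and with the block added 1964 were lower and 2693 higher. The cause was not tested. Among the members, the calls of *Clu* and *Anxa3* were lost without each library in turn and that of *F3* without library 2 labelled cKO (adjusted p from limma between 0.0540 and 0.258). Among the other genes that the report names, calls lost without control library 1 included those of *Anxa4*, *F2rl1*, *Tead3*, *Nt5e*, *Krt20*, *Wwtr1*, *Lats2* and *Ccn2*, and without control library 2 they included that of *Rnf43*. Without library 1 labelled cKO they included those of *Anxa6*, *Anxa4*, *F2rl1*, *Tead3*, *Axl*, *Nt5e*, *Fpr1*, *Fpr2*, *Rnf43*, *Lgr5*, *Krt20*, *Wwtr1* and *Lats2*, and without library 2 labelled cKO the same ones apart from *Tead3*, with *Ccn2* in addition (adjusted p from limma between 0.0509 and 0.220 for these genes). Neutrophil markers called lower numbered 2 and 1 without library 1 or 2 labelled cKO, fibroblast markers 2 and 2 and lymphocyte markers 0 and 0, and without library 1 labelled cKO 2 macrophage and 3 endothelial markers were called.

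The mouse numbers of the 2 groups share only a number, since the deviations of same-numbered libraries from their group means correlated at -0.0908. With the replicate block 3789 of all genes were lower and 3899 higher, and 3 members were lower and 1 higher. With the block and the GC correction 4 members were lower and 0 higher by limma (1 at an unadjusted p under 0.05), and with the block *Plau* was called lower (adjusted p = 0.0169 from limma), while *Clu* was called with the block and the GC correction together (adjusted p = 0.00679). Genes under the filter were not judged, and with 2 mice per group the intervals of the members are wide.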
